A study of Arabidopsis thaliana with 9 samples.

Results

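The signals of 4 lipid transfer, wax and GDSL lipase genes were followed across 3 genotypes of Arabidopsis seedlings. These genes were AT5G55450 and AT1G62500, both of the lipid transfer protein family, AT5G61590 (DEWAX), a transcription factor that represses wax synthesis, and AT1G28600, a GDSL-type lipase. Each was taken as the probe set (a group of short probes whose brightness gives 1 signal) that the platform annotation pairs with that single gene, which gave 4 of the 13286 genes paired in this way. All 4 passed the filter on low signal. The genes were chosen by their measured signals in mSPL13 against SPL13 and Col-0, so their differences in the mSPL13 comparisons are given below as a description, with no test.

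RNA of whole seedlings grown for 3 days in the light was measured on 9 single-channel Affymetrix arrays, 3 for each genotype. Col-0 is the untransformed wild type. SPL13 and mSPL13 are Col-0 plants transformed with the gene of the transcription factor SPL13 under its own promoter, in SPL13 as a non-mutated gene and in mSPL13 as a mutant form that the microRNA miR156 cannot repress. All groups share the Col-0 background, the medium with 1% sucrose, 3 days at 4 °C in the dark and 3 days at 22 °C in the light. The sources used here do not say how many transformed lines stand behind a group. The 3 arrays of a genotype are labelled as independent biological replicates.

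The surface of the shoot is covered by a cuticle made of the polyester cutin and of waxes, which epidermal cells build from very-long-chain fatty acids and export to the wall. Lipid transfer proteins are small secreted proteins that bind lipids in a pocket held by cysteine bridges, and some of them act in cuticle assembly, signalling or defence. GDSL-type lipases are hydrolases named after a sequence motif around the active serine, and members of the family act on cutin, wall polymers or other esters. DEWAX is an ERF-type factor that accumulates in the dark and lowers the expression of wax genes, and at least 1 factor of the SPL family is known to act on wax synthesis in the opposite direction.

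A few facts of the whole set bear on what follows. The median signal of an array lay between 175.9 and 191.6, and Pearson's r between the log2 signals of any pair was 0.959 to 0.988 over the 13647 probe sets tested. In Col-0 replicate 3, 86 probe sets lay over 2-fold from the mean of the other Col-0 arrays, against 48 in replicate 1 and 31 in replicate 2. The same count was 111 for SPL13 replicate 1 and 20 to 51 for the other SPL13 and mSPL13 arrays. The SPL13 arrays had low signals of chloroplast-encoded genes, with medians between -2.352 and -0.795 on the log2 scale relative to the Col-0 mean, and none of the 4 genes is chloroplast-encoded. The 3′ to 5′ ratio of the GAPDH control, a sign of RNA breakdown when high, ran from 0.944 to 0.999 for Col-0 arrays, from 0.838 to 1.029 for SPL13 arrays and from 1.007 to 1.104 for mSPL13 arrays. Its part in the differences below was not tested. In whole seedlings, a change in RNA per cell and a change in the number of cells that express a gene cannot be told apart. Precision is limited by having 3 arrays a genotype.

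Both lipid transfer genes had their high signals in mSPL13 alone. AT5G55450 gave signals of 943.3, 966.2 and 803.5 in mSPL13 replicates 1 to 3. In SPL13 the signals were 184.8, 187.7 and 173.9, and in Col-0 they were 118.9, 93.8 and 191.1. Every mSPL13 array was far brighter than any other array, while the SPL13 values lay inside the Col-0 range. The mSPL13 mean was 904 ± 88.1 (SD, n = 3), the SPL13 mean 182 ± 7.28 and the Col-0 mean 135 ± 50.5. The fitted log2 fold change was 2.18 ± 0.19 (SE) against SPL13 and 2.62 ± 0.19 against Col-0, a difference of 4.55-fold and 6.14-fold on the log2(signal + 20.8) scale, which understates changes of low signals. Over all probe sets, the groups did not overlap for 24% in mSPL13 against SPL13, 23% in mSPL13 against Col-0 and 13% in SPL13 against Col-0.

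AT1G62500 gave signals of 674.1, 643.7 and 507.6 in mSPL13. The SPL13 signals were 157.5, 223.8 and 218.5, and the Col-0 signals were 171.3, 177.5 and 173.5. The lowest mSPL13 array was above the highest of the other arrays by more than the spread within any genotype. The Col-0 arrays were close together (174 ± 3.14, SD, n = 3), whereas SPL13 (200 ± 36.8) and mSPL13 (608 ± 88.7) were more spread. The log2 fold change was 1.52 ± 0.16 against SPL13 (2.86-fold) and 1.68 ± 0.16 against Col-0 (3.21-fold).

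**Figure D1:**
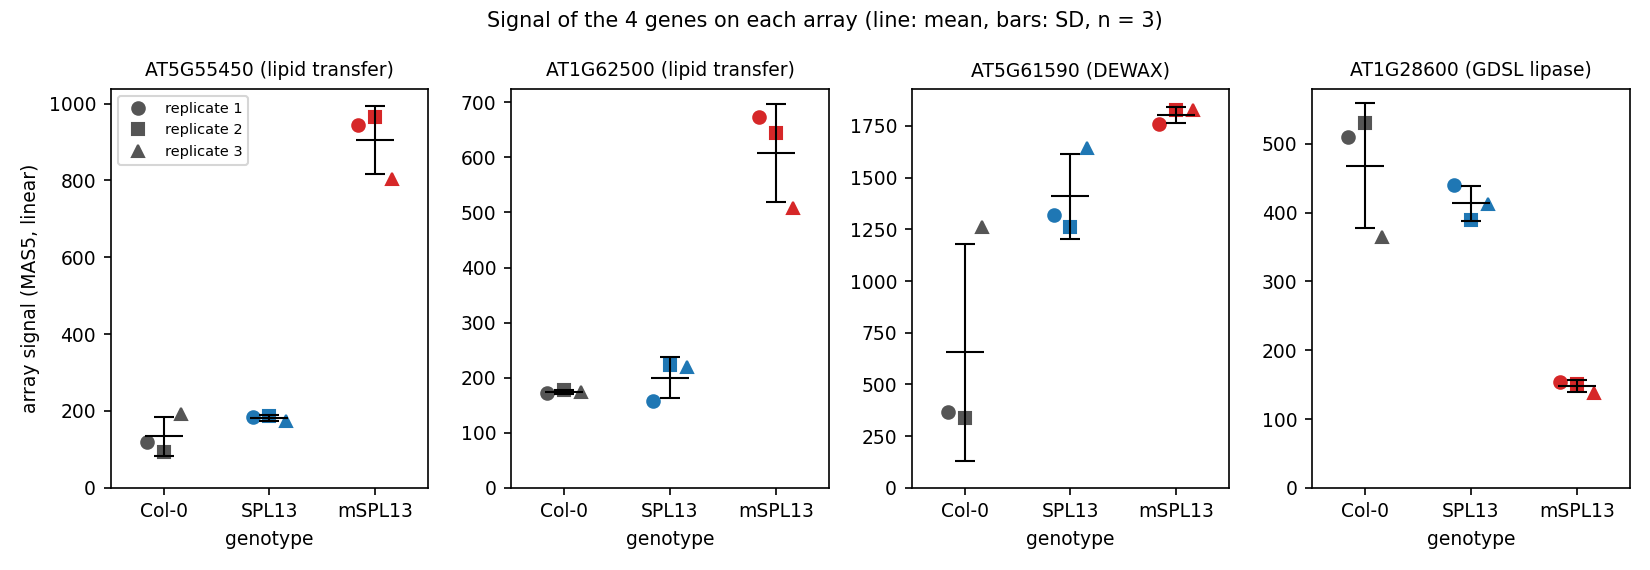
Array signal on a linear scale from 0 (y axis) by genotype (x axis) for each of the 4 genes; points are arrays, with the symbol giving the replicate number, and the line and bars are the mean and SD of 3 arrays. AT5G55450 and AT1G62500 are high and AT1G28600 is low in the 3 mSPL13 arrays alone, while AT5G61590 is low only in Col-0 replicates 1 and 2 (368.8 and 335.7).

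AT5G61590 (DEWAX) followed another pattern. Its signals were 368.8, 335.7 and 1259.7 in Col-0 replicates 1 to 3. In SPL13 they were 1318.7, 1263.5 and 1644.7, and in mSPL13 they were 1760.3, 1826.7 and 1827.2. The 3 genotypes did not overlap and stood in the order Col-0, SPL13, mSPL13, but Col-0 replicate 3 lay just under the lowest SPL13 array and far above the other Col-0 arrays. The Col-0 mean was 655 ± 524 (SD, n = 3), the SPL13 mean 1409 ± 206 and the mSPL13 mean 1805 ± 38.5. Within Col-0 the SD of the log2 values was 1.03, and only 0.05% of the probe sets tested had a larger one there. Within mSPL13 the same SD was 0.03, and 97.1% of the probe sets had a larger one.

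The log2 fold change of AT5G61590 was 1.70 ± 0.34 (SE) for mSPL13 against Col-0 and 0.36 ± 0.34 for mSPL13 against SPL13. The SE of the second includes the wide spread of Col-0, which is not in that comparison. It was 0.12 when only the SPL13 and mSPL13 arrays were fitted, and 0.12 without Col-0 replicate 3, with the same difference of 0.36. This difference was called neither in the main fit nor in any alternative fit. Because the gene was chosen by its signals in the mSPL13 comparisons, that is a description and not an independent test. All 3 mSPL13 arrays lay above all 3 SPL13 arrays, beside 24% of all probe sets whose groups did not overlap in this comparison. The value against Col-0 rested on which Col-0 arrays were used: it was 1.43 without replicate 1, 1.37 without replicate 2 and 2.29 without replicate 3, in fits where 2.43%, 1.82% and 6.62% of all probe sets were called.

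The comparison of SPL13 with Col-0 asks what the non-mutated transgene changes, and it was not used to choose AT5G55450, AT1G62500 and AT1G28600. It shares its Col-0 and its SPL13 arrays with the mSPL13 comparisons that chose the 4 genes. Over all probe sets 7 of 13647 (0.0513%) were called in it at a limma adjusted p under 0.05, 0.0147% higher and 0.0366% lower, and none of the 4 genes was among them. At an unadjusted p under 0.05, 1205 probe sets passed, AT5G55450 and AT5G61590 among them. AT5G55450 had a log2 fold change of 0.43 ± 0.19 (limma adjusted p = 0.53), with a 95% interval from 0.03 to 0.84. AT1G62500 had 0.17 ± 0.16 (limma adjusted p = 0.803, interval -0.17 to 0.50), and AT1G28600 had -0.15 ± 0.15 (limma adjusted p = 0.811, interval -0.47 to 0.17). These small differences moved with single arrays. AT5G55450 was at 0.24 without Col-0 replicate 2 and at 0.68 without Col-0 replicate 3 (limma adjusted p = 0.84 and 0.052). AT1G62500 was at 0.31 without SPL13 replicate 1, 0.08 without SPL13 replicate 2 and 0.10 without SPL13 replicate 3. AT1G28600 was at -0.09, -0.06 and -0.32 without Col-0 replicates 1, 2 and 3. None of the 3 genes was called in any of these fits.

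For AT5G61590 the log2 fold change of SPL13 against Col-0 was 1.34 ± 0.34 (limma adjusted p = 0.248, interval 0.61 to 2.07). Of all 13647 probe sets, 2 had a larger rise in this comparison. Leaving out Col-0 replicate 3 gave 1.93 ± 0.14 with a limma adjusted p of 3.7e-05, in a fit that called 148 probe sets (1.08%). Leaving out Col-0 replicate 1 or replicate 2 gave 1.07 and 1.01, with limma adjusted p of 0.866 and 0.684 and 0.0147% and 0.00733% of probe sets called. The call on DEWAX in SPL13 thus turned on Col-0 replicate 3, whose label does not differ from those of the other Col-0 arrays. DEWAX was chosen by its signals in mSPL13 against these same Col-0 arrays. Its adjusted p values here are therefore a description and not an independent test.

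**Figure D2:**
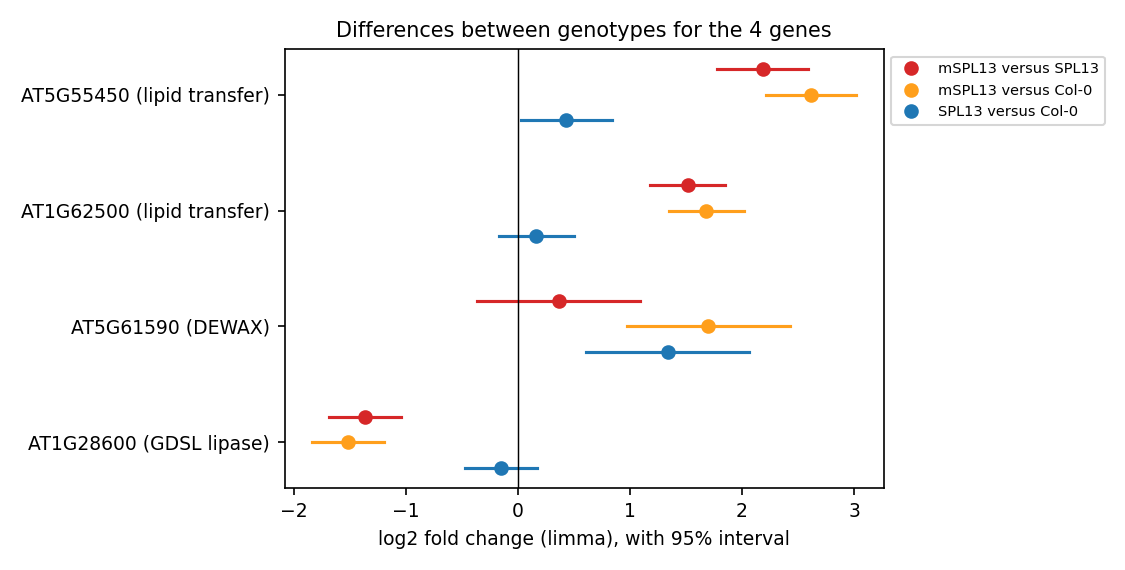
Log2 fold changes from limma (x axis) for the 4 genes (y axis) in the 3 comparisons, with 95% intervals as horizontal lines. The SPL13 versus Col-0 values of AT1G62500 and AT1G28600 lie at 0.17 and -0.15, near 0. AT5G61590 alone lies further from 0 in SPL13 versus Col-0 (1.34) than in mSPL13 versus SPL13 (0.36).

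AT1G28600, the GDSL-type lipase, was low in mSPL13. Its signals there were 154.3, 151.4 and 137.9. In SPL13 the signals were 440.1, 389.1 and 412.3, and in Col-0 they were 510, 530.2 and 364.1. All 3 mSPL13 arrays lay below all other arrays, and Col-0 replicate 3 was again apart from its group, here below every SPL13 array. The mSPL13 mean was 148 ± 8.75 (SD, n = 3), the SPL13 mean 414 ± 25.5 and the Col-0 mean 468 ± 90.6. The log2 fold change was -1.37 ± 0.15 against SPL13 and -1.52 ± 0.15 against Col-0, which is 2.58-fold and 2.87-fold lower.

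A gene close to AT1G28600 on the chromosome fell in mSPL13 too. Of the 10 protein-coding genes nearest to it in the TAIR10.1 gene table, 5 on each side, 7 had a probe set and 2 passed the filter, AT1G28570 and AT1G28580, both on the list of GDSL lipases. AT1G28570 gave signals of 373.9, 317 and 278.1 in mSPL13. Its signals were 666.5, 590.7 and 594.3 in SPL13, and 744.7, 847.8 and 663.2 in Col-0, so the mSPL13 arrays did not overlap with either group. It fell by 0.90 ± 0.14 on the log2 scale against SPL13 (limma adjusted p = 0.00353) and by 1.17 ± 0.14 against Col-0 (limma adjusted p = 0.000432). AT1G28580, much brighter in all arrays, gave 2002.8, 2886.5 and 2925.6 in mSPL13 against 3194.2, 2877.8 and 3586.5 in SPL13 and 4160.6, 3927.7 and 3132.4 in Col-0. Its log2 fold changes of -0.32 ± 0.16 and -0.53 ± 0.16 did not pass (limma adjusted p = 0.329 and 0.0728), and neither gene passed in SPL13 against Col-0 (log2 fold changes of -0.27 and -0.21). Genes of such a tandem group can be alike in sequence, and whether their probes cross-hybridise was not tested.

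**Figure D3:**
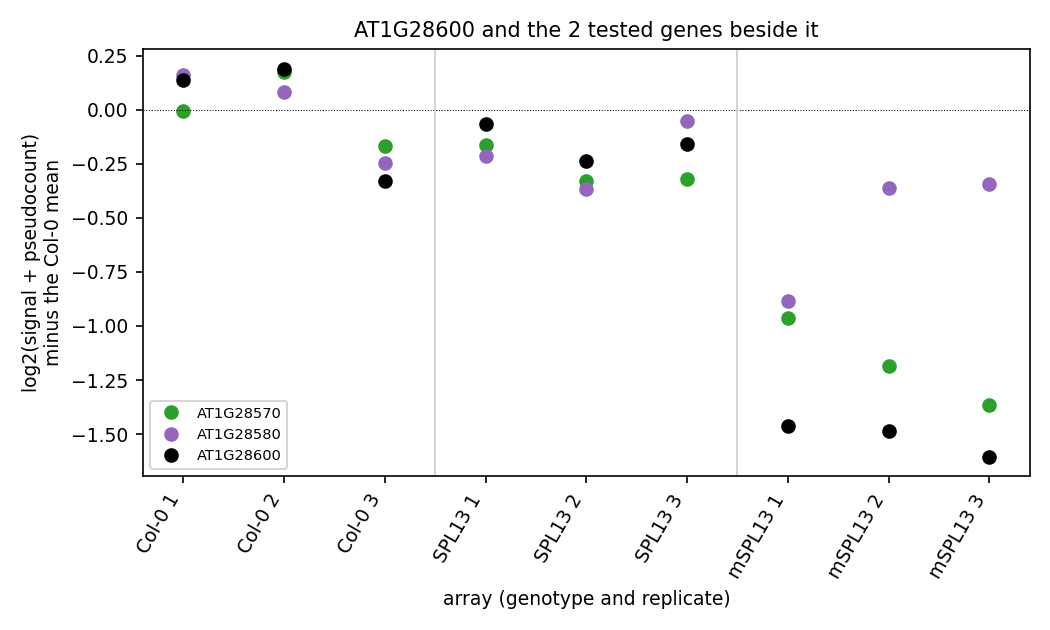
Log2(signal + 20.8) relative to the Col-0 mean (y axis) on each of the 9 arrays (x axis) for AT1G28600 and the 2 tested genes beside it. AT1G28600 and AT1G28570 drop on all 3 mSPL13 arrays, while AT1G28580 overlaps between SPL13 and mSPL13.

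Few neighbours of the other genes could be tested. Of the 3 tested neighbours of AT1G62500, AT1G62480 rose against Col-0 by 0.52 ± 0.12 on the log2 scale (limma adjusted p = 0.0277) and had 0.44 ± 0.12 against SPL13 (limma adjusted p = 0.0694). The gene directly after AT1G62500, AT1G62510, which is on the lipid transfer list, had log2 fold changes of 0.01 ± 0.33 against SPL13 and -0.24 ± 0.33 against Col-0. The single tested neighbour of AT5G55450 (AT5G55400) and that of AT5G61590 (AT5G61540) were not called, with values between -0.16 and 0.15 in all 3 comparisons.

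The genes whose signal followed each of the 4 most closely were found by Pearson's r of log2 signals over the 9 arrays, among 7292 other probe sets of 1 gene. These r values describe the same arrays that separate the genotypes, so a gene that differs in mSPL13 reaches a high r by that alone. AT5G55450 was followed by AUR2, an Aurora kinase of mitosis (r = 0.974), AT5G17160 (0.970) and AT2G31810 (0.966). AT1G62500 was followed by AT4G19430 and AT3G52110 (0.971 each) and again AUR2 (0.970). The AT4G19430 signals were 2348 to 2804.3 in mSPL13 and at most 29.3 elsewhere.

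AT1G28600 was followed by AT1G73120 (r = 0.984), AT3G20370 (0.980) and its own neighbour AT1G28570 (0.978). Of the 7292 probe sets, the one most opposite to AT1G28600 was AT5G55450, at r = -0.990, and the reverse also held. Over the 6 arrays of Col-0 and SPL13 alone, r between this pair was -0.917. These 6 arrays also entered the ranking that picked out the pair and the comparisons by which both genes were chosen. Leaving out mSPL13 therefore does not free this r from the choice, and it is a description and not an independent test. Over the same 6 arrays r was 0.948 between AT5G55450 and AT5G61590 and -0.875 between AT5G61590 and AT1G28600, while the 3 pairs with AT1G62500 had 0.262 (AT5G55450), 0.384 (AT5G61590) and -0.388 (AT1G28600). Col-0 replicate 3 holds the highest AT5G55450 and the lowest AT1G28600 signal of those 6 arrays, and the highest AT5G61590 signal within Col-0.

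AT5G61590 was followed by AT4G17486 (r = 0.964), AT5G07580 (0.954) and AT5G24450 (0.952). AT5G07580 stood on the lists of ERF factors and of cuticle regulators. Its signals were 307.4, 383.9 and 549.9 in Col-0 replicates 1 to 3. They were 607, 589.3 and 577.9 in SPL13, and 625.5, 608.9 and 632.9 in mSPL13. As for AT5G61590, Col-0 replicate 3 was nearer to the transgenic arrays than to its own group. The log2 fold change of AT5G07580 was 0.60 ± 0.16 for mSPL13 against Col-0 (limma adjusted p = 0.0539) and 0.53 ± 0.16 for SPL13 against Col-0 (limma adjusted p = 0.384). Without Col-0 replicate 3 these were 0.82 (limma adjusted p = 0.00368) and 0.75 (limma adjusted p = 0.018), where 6.62% and 1.08% of all probe sets were called. Without Col-0 replicate 1 they were 0.42 and 0.35 (limma adjusted p = 0.175 and 0.929). Without Col-0 replicate 2 they were 0.57 and 0.50 (limma adjusted p = 0.162 and 0.732). The r that ranked AT5G07580 beside AT5G61590 used these same arrays, so a shared pattern in Col-0 replicate 3 was built in. Against SPL13 the mSPL13 value was 0.07 ± 0.16.

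**Figure D4:**
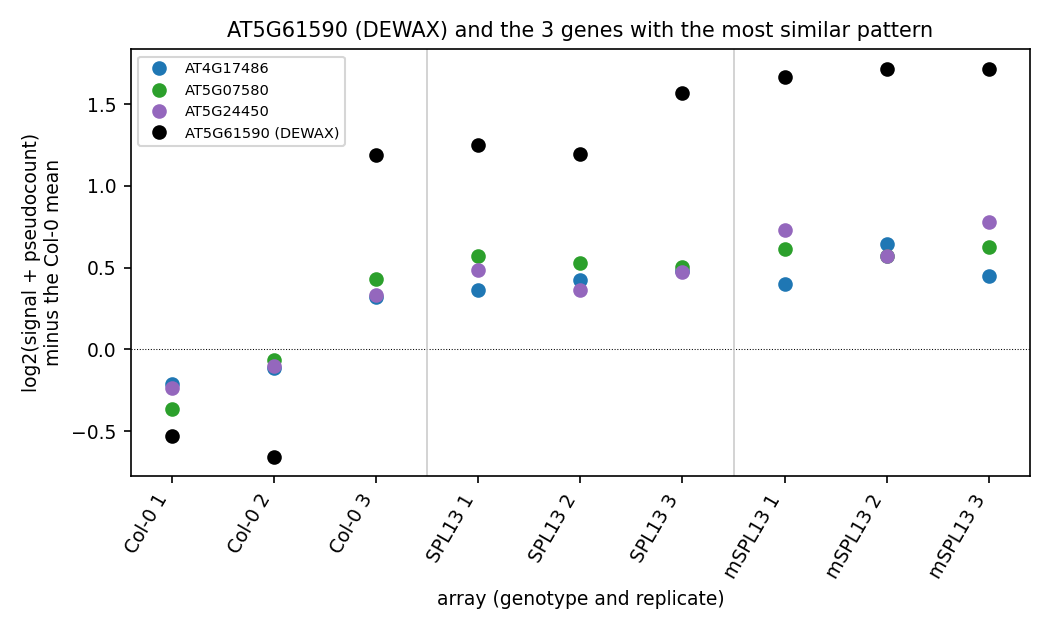
Log2(signal + 20.8) relative to the Col-0 mean (y axis) on each of the 9 arrays (x axis) for AT5G61590 and the 3 genes with the highest Pearson's r to it. All 4 genes are lowest in Col-0 replicates 1 and 2, and Col-0 replicate 3 lies near the SPL13 arrays.

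The wider families were counted from lists written by locus from general knowledge, which leave out the 4 genes. In mSPL13 against SPL13, 414 of 13647 probe sets (3.03%) were called, 1.86% higher and 1.17% lower. Of 87 lipid transfer family genes listed, 39 had a probe set and 20 were tested. In that comparison 2 rose and 1 fell, and the family median was 0.02 beside a median near 0 (-0.001) over all probe sets. AT2G37870 rose by 1.37 ± 0.28 on the log2 scale (limma adjusted p = 0.0166), from signals of 539.2, 318.3 and 251.8 in SPL13 to 728.9, 814.6 and 1408.6 in mSPL13. AT3G53980 rose by 0.79 ± 0.16 (limma adjusted p = 0.0149), from 2964 ± 532 (SD, n = 3) to 5165 ± 1017. AT4G22490 fell by 1.07 ± 0.17 (limma adjusted p = 0.00394), from 414 ± 36.2 to 189 ± 41.6. The family thus held genes that moved in both directions, and 17 of the 20 tested were not called.

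Against Col-0, where 596 probe sets (4.37%) were called, 2.07% higher and 2.3% lower, 1 lipid transfer gene rose and 1 fell, with a family median of -0.08. AT3G53980 rose by 0.78 ± 0.16 (limma adjusted p = 0.0139) and AT4G22490 fell by 1.40 ± 0.17 (limma adjusted p = 0.000491). AT2G37870 had 0.99 ± 0.28 (limma adjusted p = 0.0628). Both mSPL13 comparisons share the mSPL13 arrays. When 1 array was left out, the calls in the family numbered 1 to 3 in each of the 2 comparisons. In mSPL13 against SPL13 the calls of AT2G37870 and AT3G53980 were both lost without SPL13 replicate 2 or 3, without mSPL13 replicate 3, and with no filter on low signal. Without mSPL13 replicate 3 their values were 1.09 and 0.64. The AT3G53980 call against Col-0 was lost when Col-0 replicate 1, Col-0 replicate 2 or mSPL13 replicate 3 was dropped.

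Of 106 GDSL lipase genes listed, 70 had a probe set and 28 were tested. In mSPL13 against SPL13, 1 rose and 4 fell, and the family median was -0.11. The falls of AT1G28570 and of AT3G48460 (0.86 ± 0.14, limma adjusted p = 0.00526) were the larger ones. AT3G48460 gave 357.3, 467.6 and 372.8 in mSPL13 against 707.1, 742.5 and 753.7 in SPL13. AT4G18970 fell by 0.57 ± 0.15 (limma adjusted p = 0.0486), AT2G03980 fell by 0.49 ± 0.12 (limma adjusted p = 0.0359) and AT5G14450 rose by 0.54 ± 0.13 (limma adjusted p = 0.0358). These last 3 calls were each lost without any 1 of the SPL13 or mSPL13 arrays, and the count of calls was 2 to 6 when 1 array was left out. Against Col-0, AT3G48460 fell by 1.19 ± 0.14 (limma adjusted p = 0.000492), AT1G28570 fell too and 0 rose, with a median of -0.10 (limma; at an unadjusted p under 0.05, 15 of the 28 passed, beside 2736 of the 13647 probe sets tested). In SPL13 against Col-0, limma called 0 genes of either family, and 2 lipid transfer genes and 1 GDSL gene passed at an unadjusted p under 0.05.

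**Figure D5:**
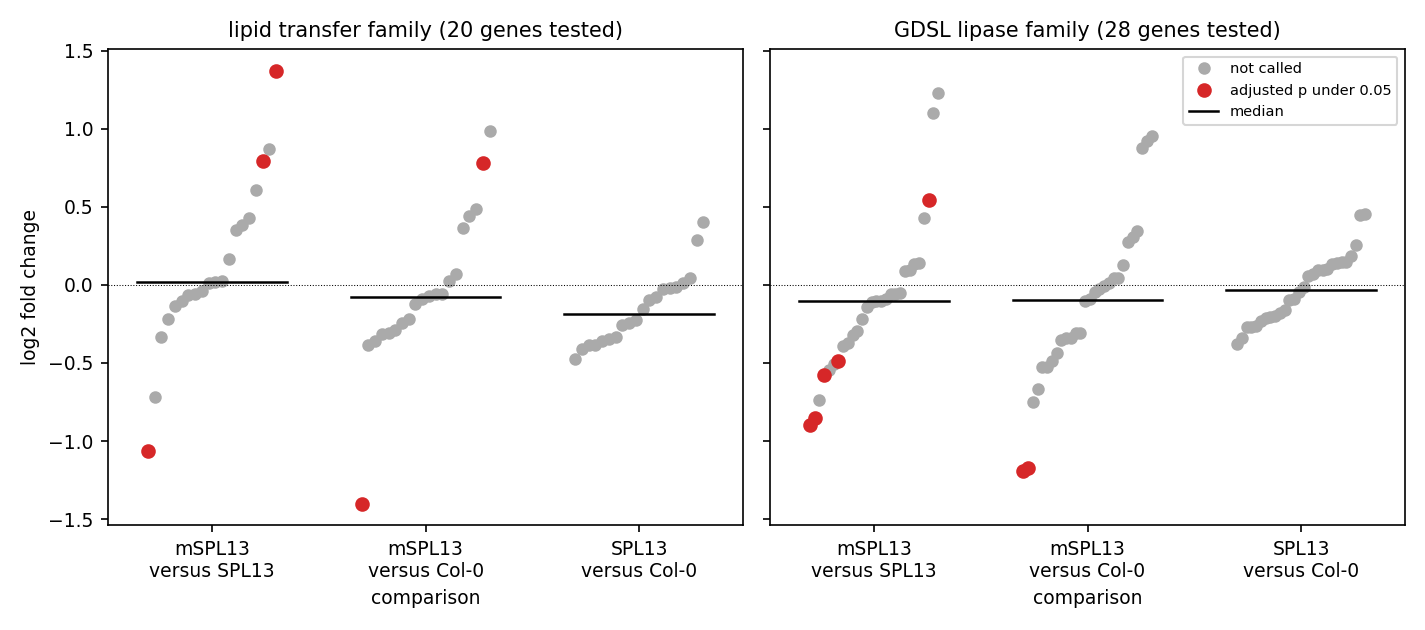
Log2 fold change (y axis) of the 20 tested lipid transfer genes (left) and the 28 tested GDSL lipase genes (right) in the 3 comparisons (x axis), each sorted by value; red points were called at an adjusted p under 0.05 and the line is the median. Called genes lie on both sides of 0 in the mSPL13 comparisons, except that the 2 called GDSL genes in mSPL13 versus Col-0 both lie below 0. In SPL13 versus Col-0, 0 were called.

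The pathway that DEWAX represses could be followed through few genes, since the annotation names probe sets for few of its members. Of 26 wax synthesis genes listed, 4 had a probe set named for them and 1 was tested. This was ACLA-2 (AT1G60810), a subunit of the ATP-citrate lyase that supplies acetyl-CoA in the cytosol, and the only 1 of 4 listed DEWAX targets with a named probe set. Its signals were 1132.1, 1564.2 and 1075.1 in mSPL13. They were 1414.8, 1524.7 and 1421.3 in SPL13 and 1359.4, 1320.9 and 1447.1 in Col-0, so all 3 groups overlapped. Its log2 fold change was -0.23 ± 0.14 against SPL13 and -0.15 ± 0.14 against Col-0 (limma adjusted p = 0.438 and 0.596), and 0.08 ± 0.14 for SPL13 against Col-0 (limma adjusted p = 0.913).

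CER26, which takes part in the elongation of very-long-chain fatty acids for wax, lay just under the filter, with a mean log2 value of 6.87 against the limit of 6.92. Its signals were 169.5, 157.5 and 159.3 in mSPL13, 47, 103.3 and 87 in SPL13, and 68.8, 67.8 and 70.1 in Col-0. The mSPL13 arrays were above all others. In the fit with no filter its log2 fold change was 1.03 ± 0.22 against Col-0 (limma adjusted p = 0.0475), 0.92 ± 0.22 against SPL13 (limma adjusted p = 0.0885) and 0.11 ± 0.22 for SPL13 against Col-0 (limma adjusted p = 0.951). In that fit AT1G56670 of the GDSL list was the other listed gene under the filter that was called, lower by 1.03 on the log2 scale against Col-0 (limma adjusted p = 0.0451). The genes under the filter numbered 3 on the wax list, 19 on the lipid transfer list and 42 on the GDSL list. The cutin, cuticle regulator and ERF lists held 1 each. Over all 22810 probe sets less the 64 controls, that fit called 372 in mSPL13 against Col-0.

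WSD1, a wax ester synthase, and CER1L1 (AT1G02190), also on the wax list, had mean signals of at most 14.3 in every genotype. SHN3, an activator of cuticle genes, had a mean signal of at most 5.43 in any genotype. Of 16 cutin synthesis genes, 1 had a named probe set, which did not pass the filter, and of 8 genes for cuticle lipid export, 0 had one. Cutin synthesis and lipid export were therefore not analysed here. No defining gene of the epidermis had a named probe set. Of 4 genes listed as root markers, NAI2 fell in mSPL13 against SPL13 by 0.60 ± 0.11 on the log2 scale (limma adjusted p = 0.0097). Against Col-0 it fell by 0.67 ± 0.11 (limma adjusted p = 0.00377). The others were not called. PYK10, EXPA7 and EXPA18 had log2 fold changes of 0.04 ± 0.09, 0.22 ± 0.18 and -0.15 ± 0.15 against SPL13. Against Col-0 they had -0.07 ± 0.09, -0.09 ± 0.18 and -0.50 ± 0.15 (limma adjusted p = 0.699, 0.843 and 0.0795). The part of tissue make-up in the differences was not tested.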

How the data were processed

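The authors deposited intensity signals made with GCOS and MAS5, per the submitters' processing notes, and these values are linear. The platform annotation paired 13513 probe sets with 1 gene and 503 with several, and the TAIR10.1 gene table held the genes of 13436. After 64 control probe sets were dropped, log2(signal + 20.8) was computed, 20.8 being the 20th percentile of the deposited values, and the 13647 probe sets whose mean log2 exceeded 6.923 (the 40th percentile) were tested. A single limma 3.58.1 model (R 4.3.3) of the 9 arrays gave each genotype a mean, with a trended prior of 7.92 degrees of freedom beside 6 residual ones. Calls are Benjamini-Hochberg adjusted p under 0.05 over all probe sets tested. On simulated data with known changes, the procedure recovered 43.3% to 52.2% of 1.5-fold changes and 91% to 98.5% of 2-fold changes. Of its calls there, 5.8% to 9.1% fell on unchanged probe sets.

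The 4 genes and all lists were chosen with earlier results of these data known. Both family lists were written by locus after the annotation was seen, since names in the gene table gave 11 and 9 genes, 0 of them with a probe set. The genes named are the 4, called list members, called neighbours and the 3 most alike by r. AT1G28580, AT1G62510, AT5G55400, AT5G61540, genes under the filter and the root markers were picked after their values were seen. Alternatives covered the pseudocount, filter, normalization, variance model, groups fitted, a replicate block, array weights and leaving out each array.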

Additional observations from a re-analysis of the deposited data

How the results depend on the processing

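No value of the 4 genes changed sign under any alternative run. Raising the pseudocount to the 40th percentile gave log2 fold changes in mSPL13 against SPL13 of 1.82 for AT5G55450, 1.24 for AT1G62500 and -1.05 for AT1G28600, and against Col-0 2.11, 1.36 and -1.18. With the 10th percentile AT1G28600 was at -1.46 against SPL13, and with no pseudocount AT5G55450 was at 2.31 and AT1G28600 at -1.49. These shifts follow from the pseudocount itself. With the filter at the 60th percentile AT5G55450 and AT1G62500 were not tested. Over fits that leave out 1 array, values of AT5G61590 were 1.37 to 2.29 for mSPL13 against Col-0 and 1.01 to 1.93 for SPL13 against Col-0, the last called.

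Counts of calls moved more. Without a filter mSPL13 versus SPL13 had 236 calls, mSPL13 versus Col-0 had 372 and SPL13 versus Col-0 had 1, and array weights gave 688 in mSPL13 versus SPL13. The count of 7 in SPL13 versus Col-0 became 14 under the higher pseudocount, 24 with median centring, 1 without trend and 2 on the compared groups only; the cause was not tested. Leaving out 1 array gave 200 to 468, 248 to 903 and 1 to 148 calls, each highest without Col-0 replicate 3.

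The labels link same-numbered arrays by the number alone. Their deviations from the genotype means correlated at -0.06 to 0.149, beside -0.16 to 0.197 for arrays of different number. These values cover all probe sets at once, and whether same-numbered arrays shared a batch was not tested. With the replicate number as a block the counts were 431, 624 and 8, and the calls of the 4 genes were those of the main fit. For AT5G61590 in mSPL13 against Col-0, the call was lost with no filter on low signal (limma adjusted p = 0.0505). That call was also lost without Col-0 replicate 1 or 2 (limma adjusted p = 0.0563 and 0.0714). Calls of the 4 genes in the mSPL13 comparisons, which chose them, are a description and not an independent test.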
